A study of Mus musculus with 5 samples.

Results

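Microglia are the resident macrophages of the retina, and the 10 genes described here encode proteins by which these cells are usually recognised. They fall into 5 groups. These include the growth factor receptor Csf1r, the surface proteins Cx3cr1, P2ry12 and Tmem119, and the complement chains C1qa, C1qb and C1qc. The others are the cytoplasmic calcium-binding protein Aif1 (also called Iba1), and the receptor Trem2 with its signaling adaptor Tyrobp (also called DAP12). The members were chosen by gene symbol, and all 10 were found among the 33636 genes of the count table, each in a single row. All 10 had more than 10 estimated counts in at least 2 libraries and were among the 17432 genes tested. RNA was sequenced from retinas of wild-type male C57BL/6J mice, an inbred laboratory strain, at postnatal day (P) 42. The right eye of each mouse had carried a diffuser goggle from P28, that is for 2 weeks, which blurs the retinal image and induces form-deprivation myopia (FDM). The left eye stayed uncovered, so every control retina came from an animal whose other eye was deprived, and untreated animals were not analysed here. The libraries were 2 from FDM eyes (FDM 1 and FDM 3) and 3 from control eyes (Control 1, Control 2 and Control 3).

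Microglia depend for survival on signals through the Csf1r receptor, and they sense neurons through Cx3cr1 and extracellular nucleotides through P2ry12. C1q is assembled from the A, B and C chains, starts the classical complement pathway and tags synapses and debris for removal. Tyrobp carries the signal of Trem2, which binds lipids and apolipoproteins. Most of these genes are also expressed by other macrophages, so that none of them marks microglia alone, although Tmem119 and P2ry12 are largely restricted to them in the nervous system.

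Total estimated counts ran from 40599047 to 56534931 per library, and the 10 members together took between 0.00344% and 0.00441% of a library. A member had between 20 counts (Aif1 in FDM 3) and 787 counts (Csf1r in Control 2) in a library, so counting error was widest for Aif1. Levels are given as CPM, counts scaled to a library of 1e+06 after the library's total over the tested genes was multiplied by its TMM normalization factor. Some libraries stood apart. Lens genes summed to 2190 CPM in FDM 3 and to between 3.06 and 21.4 CPM in the other libraries. Genes of the retinal pigment epithelium (RPE) and choroid summed to between 78.4 and 90.2 CPM in FDM 1, FDM 3 and Control 1 but to 304 CPM in Control 2 and 350 CPM in Control 3. Skeletal muscle genes reached 84.7 CPM in Control 3 and lay between 10.3 and 11.7 CPM elsewhere.

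The label of the gene set was checked against markers of neighbouring cell types, of which those named here were picked after their values were seen. Of 25 further microglial genes, 24 were in the table and all 24 were tested, including Sall1 (1.09 to 1.58 CPM), a transcription factor of these cells. Markers of macrophages at the borders of the nervous system were present as well. Ms4a7 had 34 to 74 counts and Folr2 36 to 45 counts, both above the member Aif1 in counts. Mrc1 had 0 counts in FDM 1 and 17, 7, 42 and 25 in FDM 3, Control 1, Control 2 and Control 3, and Cd163 had 16 to 35 counts. Lyve1, which vessels also express, had 500 to 839 counts. Over all 8 border markers the sum was 15.0 and 16.2 CPM in FDM eyes and 15.3 to 18.9 CPM in control eyes. Most of it was Lyve1, with 12.8 and 13.3 CPM in FDM eyes and 12.5 to 14.7 CPM in control eyes. All 7 border markers tested had a log2 fold change below 0, as 55.6% of all genes tested did. Their median was -0.47, and Lyve1 was at -0.05. The T cell gene Cd3e and the neutrophil gene Ly6g had at most 1 count in any library.

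RefSeq promoter sequences (GRCm38.p6) were given for 6 of the 10 members, namely Cx3cr1, P2ry12, C1qb, C1qc, Aif1 and Trem2. PU.1, encoded by Spi1, is an ETS-family transcription factor required for microglia. The letters GAGGAA, the core of its site, and GGAAGT, a core of ETS sites in general, were searched on both strands in the 250 bases before the start. GAGGAA was found in 4 of the 6 members (C1qb, C1qc, Aif1 and Trem2) and in 23.3% of all 32851 promoters of the table. GGAAGT was found in 3 of the 6 (P2ry12, C1qb and C1qc) and in 19.7% of all promoters. Cx3cr1 held neither, and all of its 250 bases lay within annotated exons. Shown are the stretches of C1qb, C1qc, P2ry12 and Trem2, the members with a match outside annotated exons. They are written 5′ to 3′ on the gene's strand, with matches on either strand in capitals. In C1qc the matches overlap, and its stretch ends where an annotated exon begins.
C1qb (chr4:136886201-136886450, minus strand): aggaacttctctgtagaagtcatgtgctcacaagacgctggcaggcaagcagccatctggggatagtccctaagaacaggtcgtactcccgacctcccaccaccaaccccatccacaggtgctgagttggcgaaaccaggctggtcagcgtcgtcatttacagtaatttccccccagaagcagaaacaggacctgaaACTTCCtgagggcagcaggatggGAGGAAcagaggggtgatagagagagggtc
C1qc (chr4:136893066-136893164, minus strand): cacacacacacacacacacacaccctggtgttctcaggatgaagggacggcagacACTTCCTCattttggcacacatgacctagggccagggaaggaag
P2ry12 (chr3:59262986-59263235, minus strand): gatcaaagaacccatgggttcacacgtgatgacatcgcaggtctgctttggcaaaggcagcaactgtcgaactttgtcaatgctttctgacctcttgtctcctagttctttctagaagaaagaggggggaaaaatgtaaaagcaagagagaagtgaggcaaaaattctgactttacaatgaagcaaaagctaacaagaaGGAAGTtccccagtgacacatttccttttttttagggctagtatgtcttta
Trem2 (chr17:48346151-48346400, plus strand): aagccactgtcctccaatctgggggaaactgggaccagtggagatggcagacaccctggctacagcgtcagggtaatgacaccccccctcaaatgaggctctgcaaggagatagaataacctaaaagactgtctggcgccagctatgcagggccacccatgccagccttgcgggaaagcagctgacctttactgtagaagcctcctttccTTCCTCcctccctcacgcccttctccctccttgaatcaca
A match is a description of these letters and not evidence of binding. Spi1 itself had 17 to 21 counts per library and its log2 fold change was 0.20 (standard error, SE, 0.28, edgeR adjusted p = 1.0).

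Between genes, levels can be compared only per length, and CPM was therefore divided by the length of all annotated exons of the gene in kilobases. On this scale the C1qa and C1qb levels were the highest of the set, at 4.66 and 4.0 CPM per kilobase averaged over the 5 libraries, and their ranges over libraries overlapped. Csf1r, Tyrobp and C1qc followed at 2.18, 2.08 and 2.03, and their ranges over libraries overlapped. Cx3cr1 (1.21), P2ry12 (0.92) and Tmem119 (0.845) lay below them, and the ranges of P2ry12 and Tmem119 overlapped with each other. Aif1 and Trem2 were lowest, both at 0.338. Exons of all annotated transcripts were joined for the length, which lowers the value of a gene with long, rarely used isoforms. The joined length was 4946 bases for Trem2 and 1532 for Aif1. Trem2 had 65 to 106 counts per library against 20 to 27 for Aif1, so their equal values depend on these lengths. C1qa was near the middle of the genes tested, with 48.4% of them at a higher level per kilobase, and 86.6% of genes were above Aif1 and Trem2.

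None of the 10 microglia genes passed the edgeR quasi-likelihood test between FDM and control eyes: 0 had an unadjusted p under 0.05, the threshold of the study, and 0 passed after Benjamini-Hochberg adjustment over all 17432 genes. Of all genes tested, 1.61% passed the unadjusted threshold. DESeq2 also gave 0 of 10 at the unadjusted threshold, which 0.987% of all genes passed there. The log2 fold changes of all 10 lay below 0, between -0.30 for Csf1r and -0.09 for P2ry12 and Trem2, with a median of -0.16 against -0.01 over all genes tested, of which 55.6% lay below 0. The 95% intervals of all 10 included 0. Their lower ends corresponded to levels in FDM eyes of 0.55 times (Aif1) to 0.716 times (C1qc) those in control eyes. The upper ends corresponded to 1.0 times (Csf1r) to 1.4 times (Tyrobp). Decreases and increases of up to these sizes thus lay within the error of these libraries. In whole retina, a change in the number of microglia and a change in these RNAs per cell cannot be told apart.

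**Figure D1:**
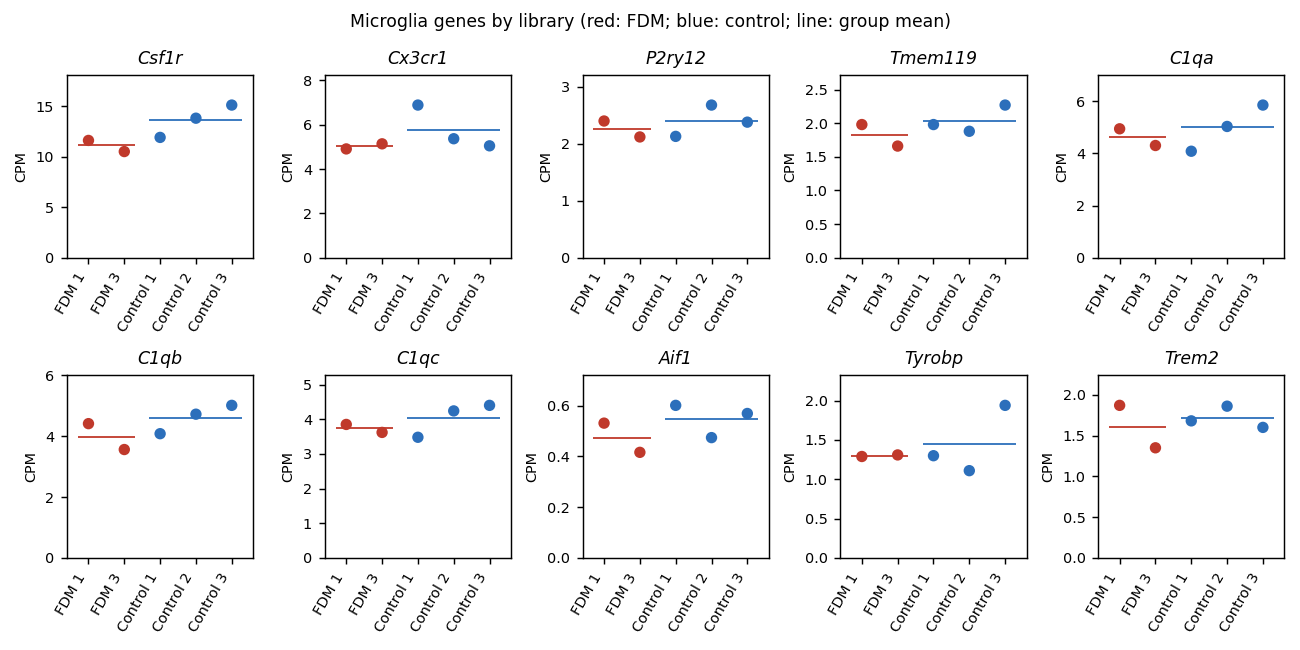
Level of each microglia gene in CPM (vertical axis from 0) in the 5 libraries, with FDM libraries in red, control libraries in blue and a line at each group mean. Only for Csf1r do both FDM points (11.6 and 10.5 CPM) lie below every control point.

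**Figure D2:**
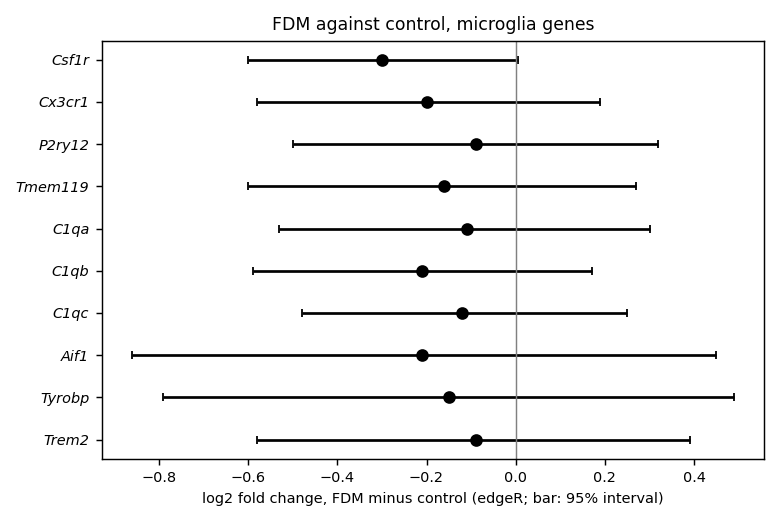
Log2 fold change of each microglia gene, FDM minus control, from edgeR (horizontal axis), with bars for the 95% interval over 2 FDM and 3 control libraries. All points lie below 0 and all bars reach 0, and the bar of Csf1r ends closest to it.

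Csf1r, the receptor for the growth factors Csf1 and Il34, lies on chromosome 18 and had the smallest p of the set. Its level was 11.6 CPM (FDM 1) and 10.5 (FDM 3) in the deprived eyes, against 11.9, 13.8 and 15.1 in Control 1, 2 and 3. Both FDM libraries were below every control, an arrangement shown by 1 of the 10 members and by 6.67% of all genes tested, and Control 1 was closer to FDM 1 than to the other controls. The group values were 11.1 ± 0.782 CPM over the FDM eyes (SD, n = 2) against 13.6 ± 1.61 over the control eyes (SD, n = 3). On the log2 scale the fold change of Csf1r was -0.30 (SE 0.13, edgeR unadjusted p = 0.0524, adjusted p = 1.0), which is 0.813 times the control level with a 95% interval from 0.659 to 1.0. With each mouse fitted as a block it was -0.29 and passed the unadjusted threshold (unadjusted p = 0.0332, adjusted p = 0.654 in edgeR), as 3.67% of genes did in that direction and 7.23% in either direction in this fit, with 0.31% past the adjusted threshold. If FDM 3 is blocked with Control 2, as the sample labels number it, 0 members passed, against 2.52% of all genes. Without Control 1 the log2 fold change of Csf1r was -0.38 (unadjusted p = 0.0124, adjusted p = 0.715 in edgeR), and 5.42% of all genes passed in that fit. It was -0.21 without Control 3 (unadjusted p = 0.168) and -0.23 without FDM 3 (unadjusted p = 0.244). Csf1r shares exon sequence with Hmgxb3 on the opposite strand, and the library kit does not mark strand, so their reads could be split. Hmgxb3 stood between 46.3 and 50.7 CPM in all libraries, with a log2 fold change of 0.03. The RPE and choroid genes were higher in the same libraries as Csf1r, Control 2 and Control 3, and their part in its difference was not tested.

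Neither ligand of Csf1r passed the threshold. Csf1 had 6.18 ± 0.206 CPM over the FDM eyes (SD, n = 2) against 6.17 ± 0.743 over the control eyes (SD, n = 3). Il34, the ligand made mainly by neurons, had 7.99 ± 0.341 CPM over the FDM eyes (SD, n = 2) against 8.65 ± 0.119 over the control eyes (SD, n = 3). On the log2 scale the fold changes were 0.00 for Csf1, with a 95% interval from -0.32 to 0.33, and -0.11 for Il34, with an interval from -0.36 to 0.13. For Il34 both FDM libraries (7.75 and 8.23 CPM) lay below every control (8.58 to 8.79 CPM), as for 6.67% of all genes tested. For Csf1 the groups overlapped.

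Cx3cr1 (chromosome 9 of GRCm38, 119901616 to 120069879), the fractalkine receptor, ordered the libraries in another way than Csf1r. It had 4.91 CPM (FDM 1) and 5.14 (FDM 3) in the deprived eyes, against 6.89, 5.37 and 5.05 in Control 1, 2 and 3. Control 1 stood above the other 4 libraries, which lay close together, and the groups overlapped. The log2 fold change was -0.20 (SE 0.16, edgeR unadjusted p = 0.267, adjusted p = 1.0), with values of -0.28 to -0.05 over the fits that lacked 1 library each. Relative to Csf1r, the Cx3cr1 level was 0.578 in Control 1, 0.334 in Control 3 and between 0.389 and 0.488 in the others. Its ligand Cx3cl1, which neurons carry on their surface, stood at 115 ± 2.0 CPM over the FDM eyes (SD, n = 2) against 122 ± 7.03 over the control eyes (SD, n = 3), with a log2 fold change of -0.09 (SE 0.09, edgeR unadjusted p = 0.349). With each mouse fitted as a block, Cx3cl1 passed the unadjusted threshold, at a log2 fold change of -0.13 (unadjusted p = 0.0434, adjusted p = 0.683 in edgeR). With FDM 3 blocked with Control 2 it did not pass, at -0.07 (unadjusted p = 0.632), nor did it when any single library was left out.

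P2ry12 (chromosome 3, 59216272 to 59262871), the receptor for ADP that guides microglial processes, had 2.40 CPM (FDM 1) and 2.12 (FDM 3) in the deprived eyes, against 2.13, 2.68 and 2.38 in Control 1, 2 and 3. FDM 3 and Control 1 were lowest and the groups overlapped. Its log2 fold change was -0.09 (SE 0.18, edgeR unadjusted p = 0.625), and without Control 2 it was 0.01. P2ry12 shares a few exon bases with Med12l on the opposite strand, which had a log2 fold change of -0.04. Tmem119 (chromosome 5, 113793729 to 113800516), a membrane protein used to separate microglia from blood-derived macrophages, had 1.98 CPM (FDM 1) and 1.66 (FDM 3) in the deprived eyes, against 1.98, 1.88 and 2.27 in Control 1, 2 and 3. FDM 1 and Control 1 were level, and the lowest and highest values were those of FDM 3 and Control 3. The log2 fold change of Tmem119 was -0.16 (SE 0.18, edgeR unadjusted p = 0.40), with a 95% interval from -0.60 to 0.27.

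The 3 chains of C1q are encoded next to each other on the minus strand of chromosome 4, C1qb from 136880129 to 136886187, C1qc from 136889804 to 136893065 and C1qa from 136895917 to 136898803. C1qa had 4.94 CPM (FDM 1) and 4.3 (FDM 3) in the deprived eyes, against 4.08, 5.03 and 5.85 in Control 1, 2 and 3. C1qb had 4.41, 3.56, 4.08, 4.72 and 5.01 CPM, and C1qc had 3.85, 3.62, 3.48, 4.24 and 4.40 CPM, in the same order. For all 3 chains Control 3 was highest, Control 2 came next, and FDM 3 and Control 1 were the lowest pair, so that the FDM libraries lay within or beside the range of the controls.

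The log2 fold changes were -0.11 for C1qa (SE 0.18, edgeR unadjusted p = 0.543), -0.21 for C1qb (SE 0.16, unadjusted p = 0.228) and -0.12 for C1qc (SE 0.16, unadjusted p = 0.478). Without Control 3 the value for C1qa was 0.02. The ratio of C1qa to C1qb in CPM stayed between 1.0 (Control 1) and 1.21 (FDM 3), and that of C1qc to C1qb between 0.853 (Control 1) and 1.02 (FDM 3). The summed C1q level was 0.977 times that of Csf1r in Control 1, 1.01 times in Control 2 and in Control 3, 1.13 times in FDM 1 and 1.09 times in FDM 3.

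Aif1 (chromosome 17, 35170991 to 35176068), the protein stained as Iba1 in most histology of microglia, was the least counted member. It had 23 counts (FDM 1) and 20 (FDM 3) in the deprived eyes, against 24, 27 and 27 in Control 1, 2 and 3. Scaled to library size, the FDM eyes averaged 0.473 ± 0.0811 CPM (SD, n = 2) and the control eyes 0.548 ± 0.0662 (SD, n = 3), with FDM 1 between the controls. The log2 fold change was -0.21 (SE 0.28, edgeR unadjusted p = 0.485, adjusted p = 1.0), with a 95% interval from -0.86 to 0.45.

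Tyrobp (chromosome 7, 30413760 to 30417585) and Trem2 (chromosome 17, 48346401 to 48354147) encode the adaptor and the receptor of a single signaling complex. Tyrobp had 1.29 CPM (FDM 1) and 1.31 (FDM 3) in the deprived eyes, against 1.30, 1.11 and 1.94 in Control 1, 2 and 3. Control 3 alone was high, and it set the direction: the log2 fold change was -0.15 (SE 0.27, edgeR unadjusted p = 0.594) and 0.12 without Control 3. Trem2 had 1.87 CPM (FDM 1) and 1.35 (FDM 3) in the deprived eyes, against 1.68, 1.86 and 1.60 in Control 1, 2 and 3. The FDM libraries were the highest and the lowest of the 5, and the log2 fold change was -0.09 (SE 0.21, edgeR unadjusted p = 0.666) and 0.12 without FDM 3. The ratio of Trem2 to Tyrobp in CPM ran from 0.826 in Control 3 to 1.68 in Control 2, with 1.45 and 1.03 in FDM 1 and FDM 3.

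Apoe, a ligand of Trem2 made in the retina mainly by Müller glia, had 421 CPM (FDM 1) and 463 (FDM 3) in the deprived eyes, against 432, 570 and 577 in Control 1, 2 and 3. Its log2 fold change was -0.25 (SE 0.14, edgeR unadjusted p = 0.113, adjusted p = 1.0). With each mouse fitted as a block it was -0.18 (unadjusted p = 0.0291, adjusted p = 0.654 in edgeR), and without Control 1 it was -0.38 (unadjusted p = 0.00489, adjusted p = 0.551). Apoe did not pass with FDM 3 blocked with Control 2 (-0.17, unadjusted p = 0.17) or when any of the other 4 libraries was left out, with values between -0.32 and -0.18. Like the RPE and choroid genes, Apoe was higher in Control 2 and Control 3 than in Control 1. The part of that tissue in the Apoe difference was not tested. Syk, the kinase that Tyrobp recruits, had 29 to 58 counts per library and a log2 fold change of -0.21 (SE 0.30, edgeR unadjusted p = 0.504).

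**Figure D3:**
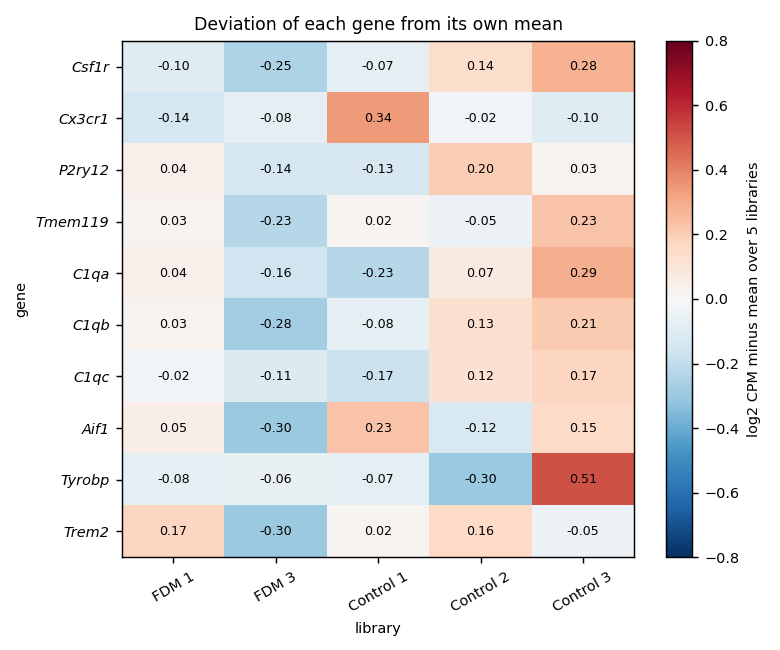
Deviation of each microglia gene in each library from its own mean over the 5 libraries, in log2 CPM (colour and number), with genes in rows and libraries in columns. FDM 3 is below the mean for all 10 genes and Control 3 above it for 8, while Cx3cr1 and Aif1 are highest in Control 1.

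Across the set, FDM 3 was the lowest library for 6 of the 10 members and below the mean of every one. Control 3 was the highest library for 6 and above the mean for 8. FDM 1 was above the mean for 6 members and Control 1 for 4. The 10 members summed to 37.8 CPM (FDM 1) and 34.0 (FDM 3) in the deprived eyes, against 38.1, 41.2 and 44.2 in Control 1, 2 and 3. The sum was 35.9 ± 2.7 CPM over the FDM eyes (SD, n = 2) against 41.2 ± 3.03 over the control eyes (SD, n = 3), with FDM 1 and Control 1 almost level. The 24 other microglial genes summed to 79.9 and 75.7 CPM in FDM eyes and to 78.3, 79.5 and 84.4 CPM in control eyes.

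The same comparison was made within animals. If the numbers of the count table are read as mouse numbers, FDM 1 and Control 1 are the eyes of one mouse. FDM 3 and Control 3 are by those numbers the eyes of another, called the third mouse after its number. Control 2 then has no partner. The sample labels number the second FDM library 2, so the second pair is not certain. A pair is 1 library against 1, so only differences with 95% intervals from exact binomial limits are given, which cover counting error and no variation between animals. In the first mouse the median log2 difference of the 10 members (FDM minus control eye) was 0.06, with 4 members lower and 6 higher in the FDM eye, where 55.3% of all genes were lower. In the third mouse it was -0.45, with 9 lower and 1 higher, where 50.3% of all genes were lower. The median over all genes tested was -0.02 in the first mouse.

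In the first mouse 1 of the 10 members, Cx3cr1, was more than 1.25-fold lower in the FDM eye, compared with 7.21% of all genes tested. Its log2 difference there was -0.49 (95% interval -0.75 to -0.22), and it was 0.02 (interval -0.24 to 0.29) in the third mouse. In the third mouse 6 of the 10 members were more than 1.25-fold lower, compared with 7.91% of all genes tested. They were Csf1r at -0.52 (95% interval -0.69 to -0.36), Tmem119 at -0.45 (-0.89 to -0.02), C1qa at -0.44 (-0.71 to -0.18), C1qb at -0.50 (-0.79 to -0.21), Aif1 at -0.45 (-1.36 to 0.44) and Tyrobp at -0.56 (-1.05 to -0.09). The interval of Aif1 held 0 and those of the other 5 did not. In the first mouse Csf1r differed by -0.04 (95% interval -0.22 to 0.15), C1qa by 0.27 (-0.03 to 0.58) and C1qb by 0.11 (-0.20 to 0.42). FDM 3 was also the library with the highest lens sum and Control 3 that with the highest muscle sum. RPE and choroid genes summed to 78.4 CPM in FDM 3 against 350 CPM in Control 3, and to 85.6 CPM in FDM 1 against 90.2 CPM in Control 1. The part of these tissues in the member differences was not tested. If the second FDM library is instead paired by the sample labels, with Control 2, the median difference of the members was -0.23, with 9 lower and 1 higher. In that pair 4 members were more than 1.25-fold lower and 3 intervals excluded 0. The share of all genes past that fold was not computed for it. Csf1r was then at -0.39 (95% interval -0.56 to -0.23) and Tyrobp at 0.25 (-0.28 to 0.77).

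**Figure D4:**
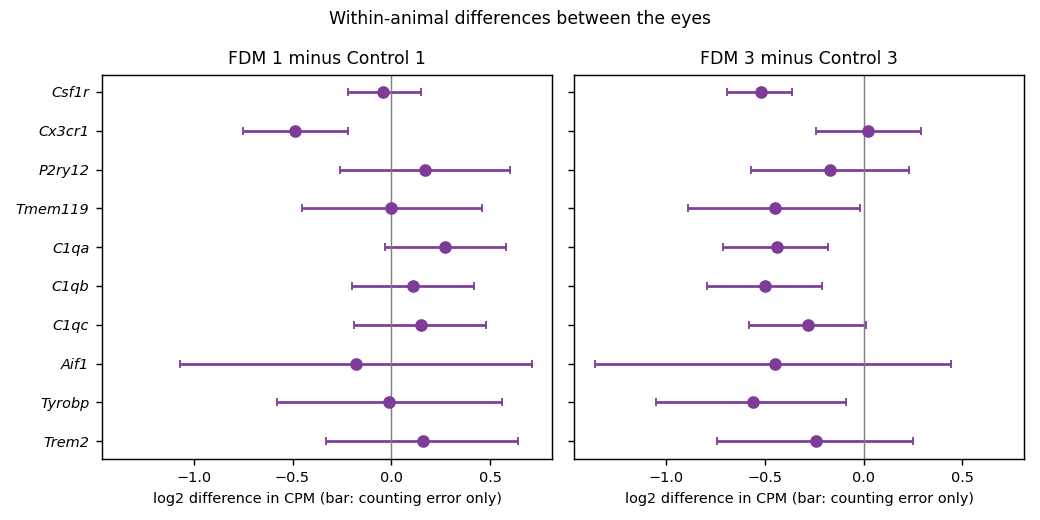
Log2 difference in CPM between the FDM and the control eye of the first mouse (left) and the third mouse (right) for each microglia gene, with bars for 95% intervals that cover counting error only. On the left the points run from -0.49 (Cx3cr1) to 0.27 (C1qa), and on the right from -0.56 (Tyrobp) to 0.02 (Cx3cr1).

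Genes that act with the members or mark the same cells were examined in 3 further lists. Of the other microglial genes, 0 of 24 had an unadjusted p under 0.05 in edgeR, against 1.61% of all genes tested. In this list 14 had a log2 fold change below 0, as 55.6% of all genes did, and the median was -0.02. Itgam, the integrin chain known as CD11b, had a log2 fold change of -0.11 (SE 0.20, unadjusted p = 0.591). Irf8, a transcription factor of microglia, had the lowest value, -0.33 (SE 0.19, edgeR unadjusted p = 0.118, adjusted p = 1.0). It stood at 1.31 and 1.58 CPM in FDM eyes and at 1.73, 2.00 and 1.75 CPM in control eyes, without overlap. The highest value in the list was 0.23.

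Of 20 genes of activated microglia and antigen presentation, 13 were tested and 0 passed the unadjusted threshold, which 1.61% of all genes passed. All 13 had a log2 fold change below 0, as 55.6% of all genes tested did, and the median was -0.25. The list summed to 109 CPM in Control 3 and to between 60.5 and 78.5 CPM in the other libraries. Tnf, Ccl2, Ccl3 and Ccl4, which encode inflammatory cytokines and chemokines, had at most 3 counts in any library and were not tested, and Il1b had at most 4. The phagocytic markers Cd68 and Lgals3 had log2 fold changes of -0.09 (SE 0.18) and -0.12 (SE 0.26). With each mouse fitted as a block, 4 of the list passed the unadjusted threshold and all 4 were lower, where 3.67% of all genes were called lower. They are named after their values were seen: Gpnmb (-1.39, unadjusted p = 0.00147, adjusted p = 0.245 in edgeR), Cd74 (-1.02, unadjusted p = 0.00691), H2-Eb1 (-1.09, unadjusted p = 0.0133) and H2-Aa (-1.02, unadjusted p = 0.0376), the last 3 being genes of antigen presentation on MHC class II. Their counts were highest in Control 3: Gpnmb had 245 (FDM 1) and 441 (FDM 3) in the deprived eyes, against 280, 690 and 1866 in Control 1, 2 and 3, and Cd74 had 22, 46, 26, 67 and 119 in the same order. Gpnmb is also expressed by pigment cells, and the RPE and choroid sum was likewise highest in Control 3. The part of these tissues in the differences of these 4 genes was not tested. With FDM 3 blocked with Control 2, 1 of the list passed, Gpnmb at -0.36 (unadjusted p = 0.0177), and the values were -0.32 for Cd74, -0.61 for H2-Eb1 and -0.22 for H2-Aa. Without Control 3 Gpnmb was also at -0.36 (unadjusted p = 0.322). Without Control 1, 6 genes of the list passed the unadjusted threshold, all lower, where 3.2% of all genes were called lower, and 0 passed when any other single library was left out.

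Of 22 ligands, adaptors, complement genes and their regulators, 21 were tested, 1 passed the unadjusted threshold, and the median log2 fold change was -0.07. The gene was C3ar1, the receptor for the C3a fragment of complement, which microglia and other macrophages carry. It had 15 counts (FDM 1) and 17 (FDM 3) in the deprived eyes, against 20, 54 and 34 in Control 1, 2 and 3, with both FDM libraries below every control. Its log2 fold change was -1.06 (SE 0.35, edgeR unadjusted p = 0.0177, adjusted p = 1.0), where 1.16% of all genes were called lower. It lost the unadjusted threshold without FDM 1, without FDM 3 and without Control 2. With each mouse fitted as a block, 5 genes of the list passed the unadjusted threshold, among them C3ar1 (-0.80, unadjusted p = 0.0491, adjusted p = 0.687 in edgeR), Cx3cl1 and Apoe, given above, and the complement regulator Serping1 (-0.29, unadjusted p = 0.026), which was picked once its values were known. In that fit 7.23% of all genes passed, and with FDM 3 blocked with Control 2, 3 of the list passed, where 1.78% of all genes were called lower.

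The complement genes downstream of C1q gave no call in the edgeR test of all 5 libraries. C1ra and C1s1, the proteases bound to C1q, had log2 fold changes of -0.06 (SE 0.24) and 0.18 (SE 0.17). C4b, which C1s cleaves, had 13.5 and 12.4 CPM in FDM eyes, within the 11.9 to 14.8 CPM of the control eyes. C3 had 1.75 CPM in FDM 1 and 3.56 in FDM 3, around the 2.56 to 3.01 CPM of the controls. For C3 the log2 fold change was -0.07 (SE 0.28, edgeR unadjusted p = 0.816). It was -0.67 without FDM 3, a fit that left 1 FDM library. Among the border macrophage markers, 1 of 7 tested was called, F13a1, a clotting factor subunit also made by macrophages, with 2 and 3 counts in FDM eyes and 6, 21 and 21 in control eyes (log2 fold change -2.52, SE 0.66, edgeR unadjusted p = 0.00612, adjusted p = 1.0). F13a1, C3ar1 and Serping1 were higher in Control 2 and Control 3 than in Control 1, as were the RPE and choroid genes, and the part of that tissue was not tested.

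**Figure D5:**
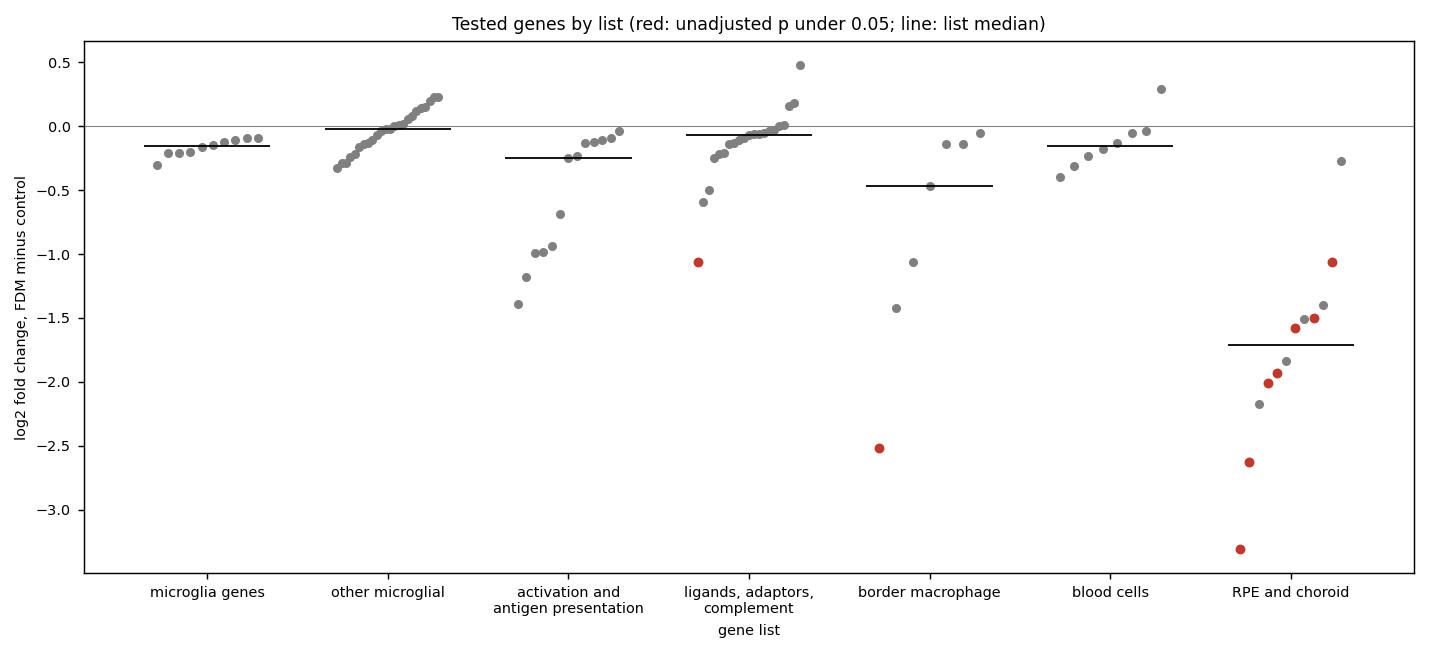
Log2 fold change, FDM minus control, of every tested gene in 7 lists (vertical axis), with genes past the unadjusted threshold in red and a line at each list's median. The microglia genes lie between -0.30 and -0.09 and the other microglial genes on both sides of 0, while the RPE and choroid genes have a median of -1.71.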

How the data were processed

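Poly-A RNA of 5 retinas was sequenced by the authors. Per the labels, reads were trimmed with Trimmomatic 0.39 and quantified with Salmon 1.10.1. The authors deposited estimated counts per gene as whole numbers, and a signal of counts normalized in DESeq2 with a factor for each gene and library. They removed 1 sample for its read duplication level. Groups follow the sample labels, which number the second FDM library 2, whereas the count table and the paper number it 3. Replicates are eyes of separate mice.

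Genes with more than 10 estimated counts in at least 2 libraries (17432 of 33636) entered the quasi-likelihood test of edgeR 4.0.16 (R 4.3.3, TMM factors, no covariate), with Benjamini-Hochberg adjustment over all of them. Each SE was derived from the F statistic as |log2 fold change|/√F. The 6 rows without a symbol were kept under their gene IDs. Alternatives were DESeq2 1.42.0, limma 3.58.1 (deposited normalized counts, log2 scale, pseudocount 1 or 0.1), other normalizations and filters, a block for each mouse, and fits lacking 1 library. The main fit was tried on counts simulated independently for each gene and library. The simulation held no pairs of eyes and no shared lens, RPE or muscle differences between libraries, so it does not cover these. Same-mouse deviations from group means correlated across genes at 0.247 (FDM 1 with Control 1) and 0.0998 (FDM 3 with Control 3), and at 0.163 for FDM 3 with Control 2. The pairing comes from the paper's numbers, read as mouse numbers, and for FDM 3 it is the pairing with the lower correlation.

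Coordinates are from GENCODE M21 (GRCm38). Named are all 10 members, listed genes past the unadjusted threshold and 15 listed genes given whatever their values, of which 1 is not reported here. The members and lists were chosen with earlier results of these data known. Fcrls and Lim2 were not found by symbol. Over the remaining lists, edgeR called 0 of 10 Müller glia and astrocyte, 0 of 10 endothelial and pericyte, 0 of 5 oligodendrocyte, 0 of 9 rod and cone, 0 of 8 blood and 0 of 5 muscle genes at the unadjusted threshold, 7 of 12 RPE and choroid genes (lower) and 10 of 10 lens genes (higher).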

Additional observations from a re-analysis of the deposited data

How the results depend on the processing

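Over 15 alternatives, the median log2 fold change of the 10 members stayed below 0, from -0.26 (without FDM 1) to -0.05 (without FDM 3). 0 members passed the unadjusted threshold in 12 alternatives and 1, Csf1r, in the other 3, and 0 passed after adjustment in any. The other microglial genes had 0 calls in all 15. Of 150 member values, 141 kept direction and side of the threshold. Csf1r passed the unadjusted threshold with all genes of at least 1 count (p = 0.0428), with the paper's block and without Control 1, and its highest p elsewhere was 0.244. The sign turned for C1qa (0.02) and Tyrobp (0.12) with the block by label numbers and without Control 3, for Trem2 (0.12) without FDM 3 and for P2ry12 (0.01) without Control 2. Over the fits lacking 1 library the ranges were -0.24 to 0.02 (C1qa), -0.31 to 0.12 (Tyrobp), -0.34 to 0.12 (Trem2) and -0.18 to 0.01 (P2ry12). The cause was not tested.

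With the replicate block by the paper's numbers, calls were 1 of the members, 4 of the activation list, 5 of the partner list and 1261 of all genes, with 54 after adjustment. With the block by label numbers they were 1 (activation), 3 (partners), 439 and 128. Either block leaves 1 residual degree of freedom. With all genes of at least 1 count, calls were 1, 2, 3 and 498, in the order members, activation, partners and all genes. DESeq2 called 3 partners and 172 genes, with 3 after adjustment. limma called 2 of the activation list and 500 genes with a pseudocount of 1, and 1 and 493 with 0.1. The authors' factors gave 1 call in the activation list. Leaving out each library gave 0 to 1 members, 0 to 6 activation genes, 0 to 5 partners and 146 to 944 genes, with 0 to 16 after adjustment, against 281 and 0. Where 1 FDM library remained, it was assumed to vary like the controls. Aif1, with at most 27 counts, was limited most by depth.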
